A study of Mus musculus with 12 samples.

Results

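The colons of 6 Parp1-/- mice, of 12 mice in the series, fell into samples rich and samples poor in smooth muscle RNA, and the genes that differed between these sides are described here. For each array the values of Acta2, Actg2, Myh11, Tagln, Cnn1 and Des, 6 genes that mark smooth muscle, were averaged, and an array with a mean above 1 was called muscle-rich and one with a mean below 1 muscle-poor. Each side held 3 arrays: muscle-rich were Parp1-/- water 2, Parp1-/- water 3 and Parp1-/- DSS 1, and muscle-poor were Parp1-/- water 1, Parp1-/- DSS 2 and Parp1-/- DSS 3. The sides were thus chosen by measured values of these arrays, so every difference between them is given as a description, with no test.

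The study asked how loss of Parp1, the enzyme that marks broken DNA with chains of ADP-ribose, alters injury of the colon lining. Mice aged 6 to 8 weeks, wild type or Parp1-/-, drank plain water or 4% dextran sulfate sodium (DSS), a polysaccharide that damages the colon epithelium, for 7 days, with 3 mice in each of 4 groups. All were kept in a conventional facility monitored for common mouse pathogens. RNA came from the whole colon, washed and frozen, so mucosa, muscle, nerves and blood vessels were measured together, and each mouse had its own Affymetrix array. The sources used here do not say how the Parp1 allele was made, nor whether the probes for Parp1 cover its altered part.

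The muscular coat of the colon is made of smooth muscle cells, which shorten when calcium entering through membrane channels leads to phosphorylation of myosin light chains. Between its layers lies a plexus of enteric neurons and glia, and interstitial cells of Cajal set the rhythm of contraction, while fibroblasts and vessels fill the submucosa. In smooth muscle cells the factors Srf and myocardin switch on many contractile genes through a DNA element called the CArG box.

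The deposited log-scale values had been centred so that each probe set has a median of 0 across the 12 arrays. A gene can therefore be compared between arrays, but levels of different genes cannot be ranked. Neither the base of the logarithm nor the direction is stated, and base 2 was taken, with higher values meaning more RNA. The 6 Parp1-/- arrays had medians over all probe sets between -0.044 and 0.000797 and SDs between 0.256 and 0.394. Wild-type SDs ran from 0.350 to 0.871, and 4 wild-type arrays lay above every Parp1-/- array in this respect, so wild-type values serve here only as a range. Parp1 itself was at -0.08, -0.01 and -0.22 in muscle-rich water 2, water 3 and DSS 1 and at -0.03, -0.09 and 0.03 in muscle-poor water 1, DSS 2 and DSS 3, with overlapping sides. In wild-type water 1 to 3 it was at -0.41, 1.15 and 0.53 and in wild-type DSS 1 to 3 at 0.01, 0.51 and 0.77. The genotypes overlapped, since the array labelled wild-type water 1 lay below every Parp1-/- array and wild-type DSS 1 within their range. The arrays of a group are separate mice, and their number limits the precision of every value.

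The mean of the 6 smooth muscle genes was 3.97 in Parp1-/- water 2, 3.87 in water 3 and 3.95 in DSS 1. It was -0.51 in Parp1-/- water 1, -0.18 in DSS 2 and -0.01 in DSS 3. The values nearest to the threshold of 1 were therefore 3.87 inside and -0.01 outside, and no array lay near it. The sides differed by 4.16, or 17.9-fold if the base is 2, and the 6 wild-type arrays, at -0.72 to 0.10, lay with the muscle-poor side. Both Parp1-/- groups held both kinds of array. In bulk RNA, fewer cells of a type and less RNA per cell cannot be told apart, so these values do not say which differed.

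**Figure D1:**
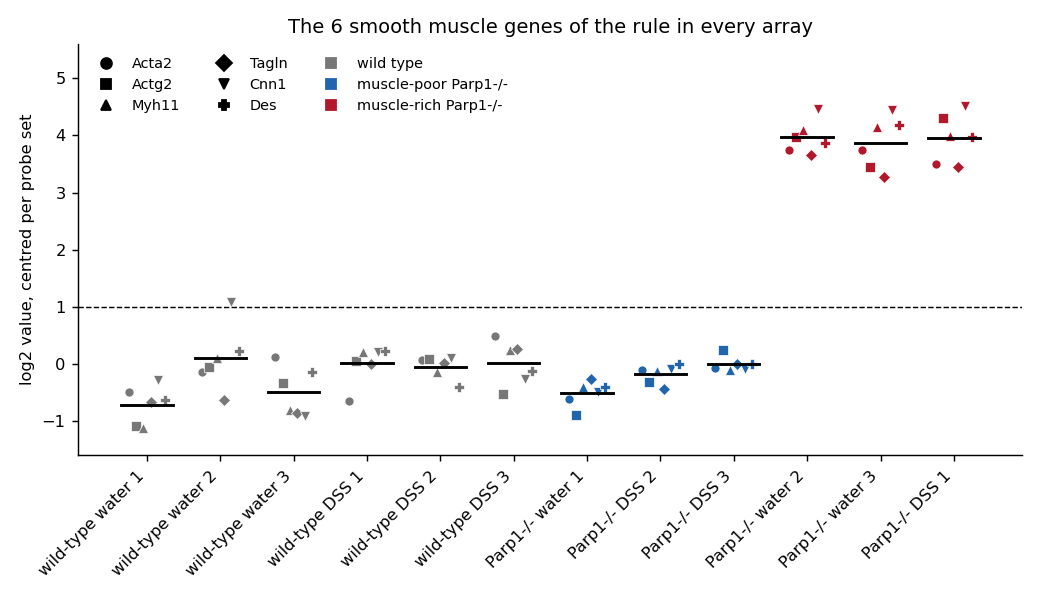
The y axis gives the centred log2 value of each of the 6 genes that define the sides, with 1 symbol per gene and a bar for their mean, in each of the 12 arrays on the x axis. The dashed line marks the threshold of 1: the muscle-rich arrays average 3.87 to 3.97 and every other array averages 0.10 or less.

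The genes that defined the sides were high in the same arrays. Cnn1, the actin-binding protein calponin, was at 4.46, 4.45 and 4.52 in muscle-rich water 2, water 3 and DSS 1 and at -0.49, -0.10 and -0.10 in muscle-poor water 1, DSS 2 and DSS 3. Myh11, the smooth muscle myosin heavy chain, was at 4.09, 4.15 and 3.98 against -0.40, -0.13 and -0.11 in the same order. All 6 genes were high in each muscle-rich array, and the DSS array of that side was not set apart from its water arrays. Actg2, the enteric smooth muscle actin, was at 3.97, 3.45 and 4.30 against -0.90, -0.32 and 0.24, the widest scatter of the 6. Des, the intermediate filament protein desmin, differed by 4.13, Acta2, the vascular smooth muscle actin, by 3.92 and Tagln, the actin cross-linker transgelin, by 3.69. These 6 genes chose the sides, so their separation is given and not counted as a finding.

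Promoters are shown for genes of this contractile set, because several belong to the classical targets of Srf and its partner. The table of RefSeq promoters (build GRCm38.p6) had an entry for 3 of the 6 defining genes and for 16392 of the 21314 genes measured. Shown are the 250 bases before the start of the gene, 5′ to 3′ on the gene's strand. Capitals mark CArG box matches that keep the outer letters of the box and have at most 1 core letter other than A or T. The box reads as the same pattern on both strands. Acta2 lies on the minus strand at chr19:34255374-34255623, and its matches begin at bases -84 and -34 from the start. Myl9, the regulatory myosin light chain, lies on the plus strand at chr2:156775214-156775463 with matches at -161 and -99, of which the first is exact. Cnn1, on the plus strand at chr9:22099003-22099252, had no match in this window.
Acta2: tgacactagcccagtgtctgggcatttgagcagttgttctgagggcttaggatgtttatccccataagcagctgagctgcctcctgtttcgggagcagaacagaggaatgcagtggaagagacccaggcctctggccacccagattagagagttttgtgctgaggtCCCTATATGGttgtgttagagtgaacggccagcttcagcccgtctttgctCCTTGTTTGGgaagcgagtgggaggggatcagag
Myl9: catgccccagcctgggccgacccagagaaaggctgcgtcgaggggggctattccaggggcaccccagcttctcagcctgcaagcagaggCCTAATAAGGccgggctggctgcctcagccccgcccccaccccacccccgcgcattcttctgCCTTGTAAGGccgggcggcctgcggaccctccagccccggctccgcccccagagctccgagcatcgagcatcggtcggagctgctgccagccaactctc
Cnn1: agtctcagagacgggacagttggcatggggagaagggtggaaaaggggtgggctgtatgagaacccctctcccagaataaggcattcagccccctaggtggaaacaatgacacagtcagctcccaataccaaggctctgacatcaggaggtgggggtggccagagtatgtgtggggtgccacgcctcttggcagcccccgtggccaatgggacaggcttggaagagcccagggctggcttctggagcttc

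An exact box was found in this window in 242 of 16392 promoters, 1.48%, and a box with up to 1 letter off in 1548, 9.44%. Among the genes of the smooth muscle lists, 7 of 78 promoters, 8.97%, had an exact box and 19, 24.4%, had a box with up to 1 letter off. Among genes higher in the muscle-rich arrays the shares were 6 of 202, 2.97%, and 28 of 202, 13.9%. The lower genes had 1 of 32, 3.12%, and 6 of 32, 18.8%. These are matches of letters and not sites of binding.

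Across the 21314 genes, a gene was counted as higher or lower where the side means differed by at least 1, a 2-fold difference, and the arrays of the sides did not overlap. By this rule 297 genes, 1.39%, were higher in the muscle-rich arrays and 58, 0.272%, were lower. Without the size limit, 4231 genes, 19.9%, had every muscle-rich array above every muscle-poor array, and 3011, 14.1%, had every one below. The median difference over all genes was 0.01. Of the 297 higher genes, 46 differed by more than 2 and 12 by more than 3, while 1 of the lower genes did so by more than 2. Of the higher genes, 41 belonged to a smooth muscle list and 208 to none of the lists used. In 205 of the 297, every wild-type array also lay below all 3 muscle-rich arrays. The 297 were chosen for high values in these 3 arrays, which favours such a count. The same count over all genes was not taken, so it is a description only. Just inside the limit were Adgrg6, Pgp and Cxcl14, at 1.002 to 1.006, and just outside it Lypla2, Reg1 and Adam23, at 0.996 to 0.999.

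Beyond the defining genes, part of the contractile apparatus was higher in the muscle-rich arrays. Of 35 other contractile and cytoskeletal genes measured, 14 were higher by the rule and none was lower, 28 had sides that did not overlap with the muscle-rich side above, and the list's median difference was 0.89. Pgm5, a protein of muscle membrane anchors, was at 3.42, 3.27 and 3.49 in muscle-rich water 2, water 3 and DSS 1 and at -0.64, -0.35 and -0.44 in muscle-poor water 1, DSS 2 and DSS 3. Myl9 was at 3.63, 3.36 and 3.39 against -0.60, -0.03 and -0.30. Pgm5 and Myl9 differed by 3.87 and 3.77, above Tagln and below the other 5 defining genes, and the sides lay far apart. Pdlim3, a scaffold that binds actinin, was at 3.50, 3.47 and 2.96 against -0.48, -0.14 and -0.74. Flna, the actin cross-linker filamin A, was at 3.13, 3.15 and 2.73 against -0.62, 0.15 and -0.18. In both of these genes DSS 1 was the lowest muscle-rich array and still lay far above the other side. The mean of the 35 genes was 1.12, 1.06 and 1.07 in the muscle-rich arrays and between -0.28 and -0.05 in the muscle-poor arrays.

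Members of the same protein family differed unequally between the sides. Of the 6 actins, only Acta2 and Actg2 were higher by the rule. The skeletal and cardiac actins Acta1 and Actc1 differed by 0.06 and 0.12, and the cytoplasmic actins Actb and Actg1 by -0.08 each, all 4 with overlapping sides. Whether the probes tell these closely similar genes apart is not stated. Of 4 myosin heavy chains, Myh11 was at a difference of 4.29 and the non-muscle forms Myh10, Myh9 and Myh14 at 0.87, 0.45 and -0.02. Myh10 and Myh9 did not overlap between the sides, being at 0.74, 0.75 and 0.47 and at 0.45, 0.51 and 0.43 in the muscle-rich arrays, but neither reached the limit. Skeletal muscle genes had 0 of 16 members higher, a median difference of -0.09 and a highest difference of 0.17, for the creatine kinase Ckm.

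Channels and calcium handling genes had 7 of 17 members higher, with a median difference of 0.46. Atp2b4, a calcium pump of the plasma membrane, was at 2.80, 2.67 and 2.28 in muscle-rich water 2, water 3 and DSS 1 against -0.79, 0.08 and -0.10 in muscle-poor water 1, DSS 2 and DSS 3. Kcnmb1, the regulatory subunit of the large-conductance potassium channel, differed by 1.88, as did Pln, the phospholamban that restrains the calcium store pump. Abcc9, a subunit of potassium channels that sense ATP, differed by 1.54, and these 4 genes had sides without overlap. Without Parp1-/- DSS 2 the median of the list was 0.75, and with the most variable probe set of each gene 0.78.

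Of 21 signalling and receptor genes of smooth muscle, 8 were higher and the median difference was 0.68. Tacr2, the tachykinin receptor, was at 2.12, 1.95 and 1.79 in the muscle-rich arrays and at -0.27, -0.45 and -0.49 in the muscle-poor arrays. Chrm2, a muscarinic acetylcholine receptor, was at 1.66, 1.39 and 1.85 against -0.38, -0.22 and -0.47. Both receptors for excitatory transmitters were thus high in each muscle-rich array, water or DSS. Ppp1r14a, an inhibitor of myosin phosphatase, differed by 2.05. Gucy1a1, a subunit of the guanylate cyclase that senses nitric oxide and relaxes muscle, was at 1.90, 1.63 and 0.86 against -0.30, -0.03 and -0.21, lower in DSS 1 than in the water arrays of its side.

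Among 19 transcription regulators of smooth muscle and gut mesenchyme, 6 were higher and the median difference was 0.25. Myocd, the myocardin that partners Srf, was at 1.20, 1.23 and 1.35 in the muscle-rich arrays and at -0.03, -0.19 and 0.03 in the muscle-poor arrays, an almost even separation of 1.32. Srf differed by 0.15, with 0.09, 0.05 and 0.16 against -0.10, -0.20 and 0.14, so its sides overlapped. Meis2 and Meis1, homeodomain factors of the TALE class, differed by 2.07 and 1.27, and Foxf1, a forkhead factor of gut mesenchyme, by 2.05. The microRNA genes Mir143 and Mir145a, which are transcribed with the RNA Carmn in smooth muscle, and Carmn itself were picked after their values were seen. Mir145a was at 1.28, 1.54 and 0.92 against -0.29, -0.33 and -0.39, Mir143 at 1.08, 0.97 and 0.74 against -0.33, -0.56 and -0.01, and Carmn differed by 1.39. All 3 were higher by the rule, whereas 5 of 401 microRNA precursor genes were higher and 13 lower.

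**Figure D2:**
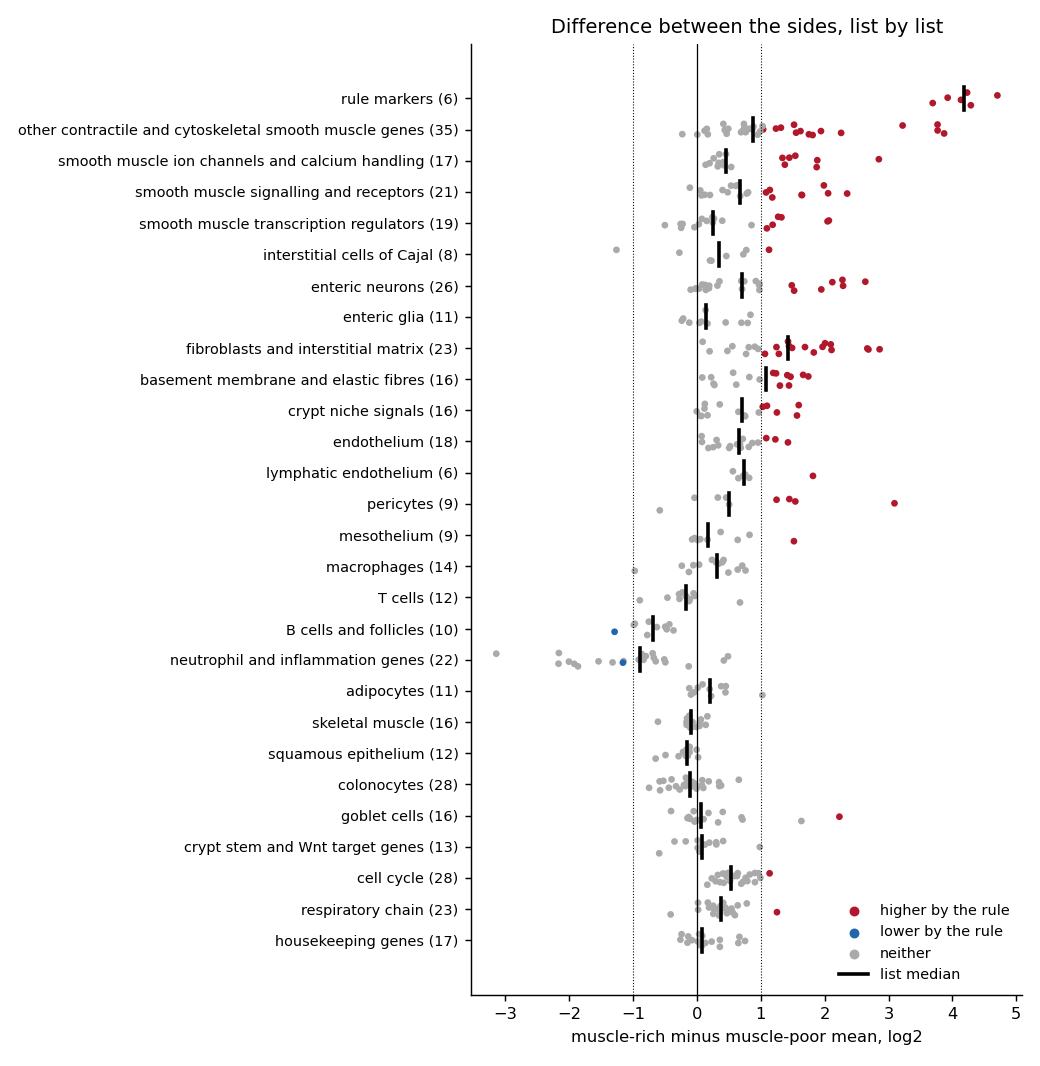
Each dot is a gene of the list named on the y axis, with the number of measured members, and its place on the x axis is the muscle-rich mean minus the muscle-poor mean in log2 units. Bars mark list medians, and the medians of smooth muscle, fibroblast and neuron lists lie between 0.25 and 4.18 while those of colonocytes and housekeeping genes are -0.11 and 0.08.

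Genes of enteric neurons were also higher in part, and whole-colon RNA does not say in which layer those neurons lay. Of 26 enteric neuron genes, 7 were higher, 16 had sides without overlap with the muscle-rich side above, and the median difference was 0.70. Gal, the neuropeptide galanin, was at 2.32, 1.68 and 2.27 in muscle-rich water 2, water 3 and DSS 1 and at -0.79, -0.37 and -0.48 in muscle-poor water 1, DSS 2 and DSS 3. Vip, the vasoactive intestinal peptide of inhibitory and secretomotor neurons, was at 2.29, 1.88 and 1.44 against -0.43, -0.31 and -0.51. Calb2, the calcium buffer calretinin, differed by 2.28 and Stmn2, a regulator of microtubules in axons, by 2.12. For Gal and Calb2, Parp1-/- water 3 was the lowest muscle-rich array and DSS 1 was close to water 2.

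Short lists covered other cells of the colon wall and its vessels. Enteric glia genes had 0 of 11 members higher, with a median of 0.14, and Fabp7, Gfra2, Cdh19 and Kcna1 had the largest differences without overlap, at 0.84, 0.80, 0.70 and 0.45. Of 8 genes of interstitial cells of Cajal only Adgrd1, an adhesion receptor, was higher, at 1.13, and the list's median was 0.35. Its largest difference was that of Thbs4, a thrombospondin picked after its values were seen, at -1.26, with -0.22, -0.26 and 1.16 against 1.85, 0.04 and 2.57 and overlapping sides. Kit, the receptor these cells depend on, and the chloride channel Ano1, both picked for their role, differed by 0.46 and -0.27 with overlapping sides. Pericyte genes had 4 of 9 higher, among them Abcc9, which is also in the list of channels above. They were led by Rgs5, a regulator of G protein signalling, at 2.76, 2.72 and 2.64 against -0.82, 0.01 and -0.35. Its probe sets disagreed in size, since the most variable of them gave 4.07 and their mean 3.09. Mesothelium, the outer lining of the gut, had 1 of 9 higher, Gpm6a at 1.52.

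Fibroblast and matrix genes had the largest share of higher members among the lists of cell types other than muscle. Of 23 measured, 15 were higher, none was lower, and the median difference was 1.43. Dpt, the matrix protein dermatopontin, was at 2.75, 2.79 and 1.75 in muscle-rich water 2, water 3 and DSS 1 and at -1.32, 0.34 and -0.31 in muscle-poor water 1, DSS 2 and DSS 3. Postn, a matrix protein of activated fibroblasts, was at 2.92, 3.16 and 1.41 against -0.08, 0.08 and -0.56. In both genes the 2 water arrays were high and DSS 1 was intermediate, above all muscle-poor arrays. Sparcl1, a secreted matrix protein outside the list, was at 3.64, 3.62 and 2.93 against 0.07, 0.40 and -0.20, a difference of 3.31. Ogn, a small leucine-rich proteoglycan, differed by 2.67 and Pdgfra, the growth factor receptor of fibroblasts, by 2.11. The list's mean was 1.40 and 1.32 in the muscle-rich water arrays and 0.76 in DSS 1, against -0.62, 0.01 and -0.17 in the muscle-poor arrays. Muscle, neuron and fibroblast lists were thus high in the same 3 arrays, and the part of each in the others' values was not tested.

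Basement membrane and elastic fibre genes had 8 of 16 members higher, with a median of 1.09. Nid1, which links laminin to collagen, was at 2.04, 1.65 and 1.44 against -0.94, 0.81 and 0.03, and the laminin chains Lama4, Lamc1 and Lama2 differed by 1.66, 1.47 and 1.44. Endothelium genes had 3 of 18 higher, with a median of 0.65: Eng, a co-receptor for transforming growth factor beta, at 1.43, the angiopoietin receptor Tek at 1.23 and the growth factor receptor Kdr at 1.09. Each was lowest among the muscle-rich arrays in DSS 1. Of the lymphatic endothelium list, Mmrn1 was higher, at 1.82, and 5 of 6 members did not overlap. Signals that mesenchymal cells send to the crypts had 5 of 16 members higher and a median of 0.70. Bmp5 was at 1.70 and 1.63 in the muscle-rich water arrays but 0.12 in DSS 1, and Hhip, an antagonist of hedgehog ligands, was at 2.12 and 1.76 but 0.03. Both lay in DSS 1 only a little above the muscle-poor arrays, which were at -0.60 to -0.17 for Bmp5 and at -0.48 to -0.03 for Hhip. Bmp4 and the antagonist Grem1 differed by 1.25 and 1.10.

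The difference between the sides was also taken within each treatment, muscle-rich water 2 and 3 against muscle-poor water 1, and muscle-rich DSS 1 against muscle-poor DSS 2 and 3. Of the 297 higher genes, 280 differed by at least 1 in water, 163 in DSS and 146 in both. Parp1-/- DSS 1 was the lowest muscle-rich array in 222 of them and the highest in 32. The water difference was over 1 larger than the DSS difference in 63 genes, and the reverse held in 2. The 297 genes were chosen by the values of these same arrays, and the muscle-rich side held 2 water arrays and 1 DSS array. The part of that choice and of treatment in these counts was not tested. The same counts over all genes were not taken. With so few arrays on each side of a treatment, the counts are descriptions of these mice.

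Gene groups differed in how evenly they separated the sides in both treatments. The 6 defining genes had median differences of 4.47 in water and 4.03 in DSS, the other contractile genes 1.02 and 0.82, and enteric neurons 0.72 and 0.76. Fibroblast and matrix genes had 1.86 in water and 0.76 in DSS, and basement membrane genes 1.32 and 0.67. Dcn, the proteoglycan decorin, was picked as the extreme case after its values were seen. It was at 1.67, 1.63 and 1.16 in the muscle-rich arrays and at -2.13, 0.54 and 0.14 in muscle-poor water 1, DSS 2 and DSS 3. Its water difference of 3.78 against 0.82 in DSS thus came with a low value in the only muscle-poor water array. Whether the water and DSS differences differ from each other was not tested.

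**Figure D3:**
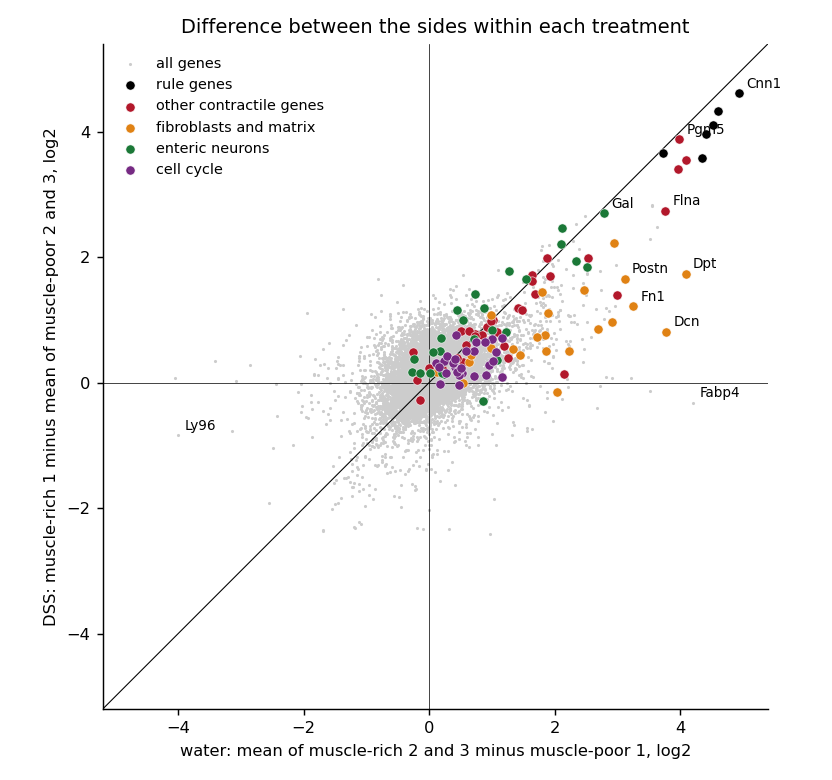
Each dot is a gene, with the difference between the sides among water arrays on the x axis and among DSS arrays on the y axis, both in log2 units, and coloured dots are members of 5 lists. Pgm5, at 3.99 and 3.88, lies near the diagonal, where both differences are equal, and Dcn, at 3.78 and 0.82, lies far below it.

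Lists of mucosal genes had small median differences between the sides. Colonocyte genes, which include transporters and keratins of the absorptive epithelium, had 0 of 28 members higher or lower, with a median of -0.11. That median was -0.21 within water and 0.14 within DSS. Slc9a3, a sodium-proton exchanger, was at -0.25, -0.14 and 0.49 in the muscle-rich arrays and at 1.06, 0.72 and 0.56 in the muscle-poor arrays, and Epcam, an adhesion protein of epithelial cells, differed by 0.10. Of 16 goblet cell genes only Retnlb, a secreted antimicrobial protein, was higher, at 1.77, 2.07 and 1.38 against 0.12, -1.09 and -0.49, and the list's median was 0.07. Of 12 enteroendocrine genes, 6 had a difference above 0 and only Sst, the peptide somatostatin, also made by enteric neurons, was higher, at 1.62. Insl5, a hormone of colonic endocrine cells picked after its values were seen, differed by as much the other way, at -1.62 with overlapping sides. Housekeeping genes had 0 of 17 higher and a median of 0.08, and adipocyte and squamous epithelium genes had none higher, with medians of 0.20 and -0.15. The adipocyte median was -0.16 without Parp1-/- water 1, the array in which the fatty acid carrier Fabp4 was at -3.86.

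Cell cycle genes leaned to the muscle-rich side without large differences. All 28 had a difference above 0, with a median of 0.54, and 14 had sides without overlap, but only the kinase Cdk1 reached the limit. Over all 21314 genes, 10864 had a difference above 0. The list's median was 0.50 within water and 0.29 within DSS. The muscle-rich side held 2 water arrays and 1 DSS array, and the part of treatment in the list's difference was not tested. Cdk1 was at 1.14, 1.37 and 0.44 in muscle-rich water 2, water 3 and DSS 1 and at 0.09, -0.47 and -0.09 in the muscle-poor arrays. The list's mean was 0.55 and 0.79 in the muscle-rich water arrays, 0.12 in DSS 1 and 0.07 in muscle-poor water 1, so DSS 1 lay close to an array of the other side. Bub1b, Top2a and Birc5, which act in mitosis, differed by 0.99, 0.96 and 0.91. Small nucleolar and Cajal body RNA genes, which guide modification of ribosomal and spliceosomal RNA, had 12 of 78 higher and a median of 0.58. Their array medians were 0.80 and 0.66 in the muscle-rich water arrays and 0.06 in DSS 1, against -0.21 to 0.07 on the other side. Hspa1b, an inducible heat shock protein, was at 2.80 and 4.10 in the muscle-rich water arrays and 0.996 in DSS 1, against 0.48, -0.38 and -0.07. Respiratory chain genes had 1 of 23 higher, Ndufa4 at 1.25, and a median of 0.37, or 0.25 within water and 0.42 within DSS. Of the 23, 22 had a difference above 0. In 12 of them every muscle-rich array lay above every muscle-poor array, as in 19.9% of all genes. The part of treatment in this list was not tested either.

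Genes lower in the muscle-rich arrays were fewer. Of the 58, 44 differed by at least 1 in water, 42 in DSS and 29 in both. Their number was 124 without Parp1-/- water 1, 175 without Parp1-/- DSS 1 and 91 without Parp1-/- DSS 3. Predicted genes, small RNAs, smell receptors and immune receptor segments were passed over when genes were named. This applied to 32 of the 58 lower genes, against 22 of the 297 higher genes. Among the 58, which were 0.272% of all genes, were 13 of 401 microRNA precursor genes and 7 of 1056 olfactory and vomeronasal receptor genes. The lower genes described by name are therefore not a picture of the whole set. Ly96, a co-receptor for bacterial lipopolysaccharide, was at -3.28 and -3.44 in muscle-rich water 2 and 3 but -0.00 in DSS 1, against 0.65, 0.74 and 0.93 in muscle-poor water 1, DSS 2 and DSS 3. Its difference of -3.02 therefore rested on the 2 water arrays, and the 3 wild-type water arrays were low too, at -2.76, -2.50 and -2.09. Ppy, the hormone pancreatic polypeptide, was at -1.18, -1.27 and 0.21 against 0.30, 0.95 and 2.13. Ccdc115 and Nsun3, at -1.46 and -1.18, had the same shape, with DSS 1 nearer to the muscle-poor arrays. Srsy, Astx5 and Btbd35f1, at -1.53, -1.37 and -1.32, and the kallikrein Klk1b11 and the cornified envelope gene Sprr1b, at -1.24 and -1.20, were lower in all 3 muscle-rich arrays.

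Lymphoid genes appeared among the lower ones. Cd79a, a chain of the B cell receptor complex, was at -0.37, -0.06 and -0.42 in the muscle-rich arrays and at 1.02, 0.06 and 1.93 in muscle-poor water 1, DSS 2 and DSS 3. Tnfrsf13c, the receptor for the B cell survival factor BAFF, was at -0.41, -0.45 and -0.37 against 0.70, 0.42 and 1.59. Both were highest in Parp1-/- DSS 3, and without that array the difference of Cd79a was -0.82. All 10 B cell and follicle genes had a difference below 0, with a median of -0.69, or -0.41 without Parp1-/- DSS 3. Over all 21314 genes, 10864 had a difference above 0. Of the 10, only Cd79a was lower by the rule. In 6 of the 10 every muscle-rich array lay below every muscle-poor array, as in 14.1% of all genes. The list's mean was -0.23, 0.05 and -0.33 in the muscle-rich arrays and 0.40, 0.10 and 1.13 in the muscle-poor arrays. T cell genes had 0 of 12 higher or lower and a median of -0.17.

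The mean of the inflammation genes was higher in each DSS array, of either side, than in each water array. Of 22 neutrophil and inflammation genes, 1 was lower, the metalloproteinase Mmp10, and only 2 had sides without overlap, although the median was -0.89. Mmp10 was at -0.47, -0.30 and -0.10 against -0.05, 2.24 and 0.40, so its separation was slight outside Parp1-/- DSS 2. Cd80, a costimulatory molecule, was also highest there, at 2.32, and its difference of -1.26 was -0.61 without that array. The list's mean was 1.91 in Parp1-/- DSS 2, 0.69 in DSS 3 and 0.45 in DSS 1, against -0.90 to -0.63 in the water arrays. Without Parp1-/- DSS 2 the median difference between the sides was -0.44, and without Parp1-/- water 1 it was -1.50. The muscle-poor side held 2 DSS arrays and the muscle-rich side 1.

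Receptor genes for smell formed a large group with a small offset. Over all genes, 0.272% were lower by the rule, 14.1% had every muscle-rich array below every muscle-poor array and 19.9% the reverse. Of 1056 olfactory and vomeronasal receptor genes, none was higher and 7 were lower by the rule. Every muscle-rich array lay below every muscle-poor array in 389 of them and above in 5, and the median was -0.10. Their array medians were -0.12 to -0.10 in the muscle-rich and -0.03 to 0.00 in the muscle-poor arrays. The part of this offset in the lower genes was not tested.

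**Figure D4:**
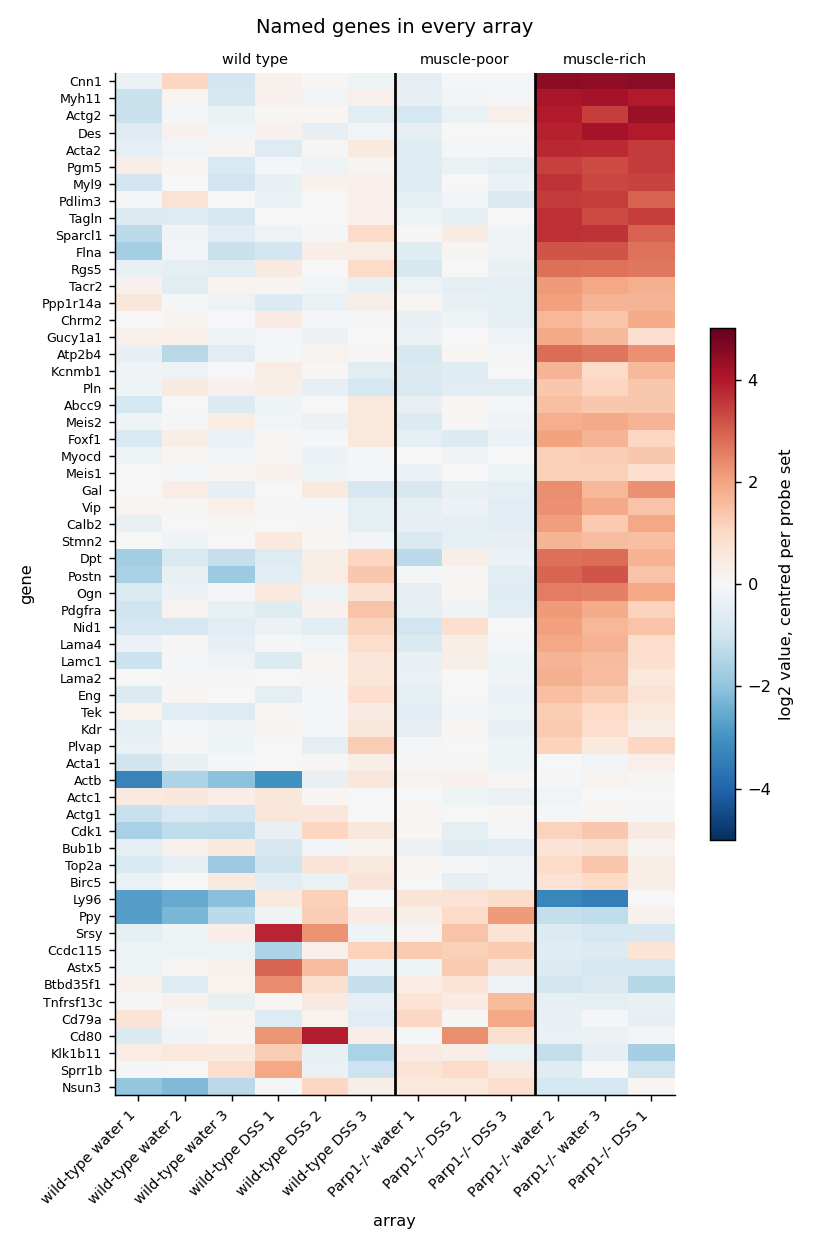
Rows on the y axis are genes described in the text and columns on the x axis are the 12 arrays, with colour for the centred log2 value from -5 to 5. Smooth muscle, neuron and matrix genes are high in the 3 muscle-rich columns, with the 6 defining genes between 3.27 and 4.52, and the lowest rows hold genes such as Ly96 that are low in water 2 and 3.

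The muscle-rich side held 2 water arrays and 1 DSS array. The mean of the 6 muscle genes was 2.44 ± 2.56 (SD, n = 3) in Parp1-/- water and 1.25 ± 2.34 (SD, n = 3) in Parp1-/- DSS, a difference of -1.19. The difference was smaller than the SD within either group. A two-sided exact permutation test over the 20 splits gave p = 0.9, but 3 against 3 mice cannot go below p = 0.1, so it could not have passed and says nothing further. The difference was -2.66 without Parp1-/- water 1, -2.54 without Parp1-/- DSS 1 and -0.56 to -0.43 without each of the others.

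DSS was then compared with water in the 6 Parp1-/- arrays with the muscle mean of each array as a term of the limma model, since treatment comes from the labels and did not choose the sides. At an adjusted p under 0.05 over all genes (limma, Benjamini-Hochberg), 3 genes rose, 0.0141%, and 2 fell, 0.00938%, and 2382 had an unadjusted p under 0.05. Without the muscle term 9 genes were called, of which 2 were shared, and 1889 had an unadjusted p under 0.05. Plat, the tissue plasminogen activator, was at -0.33, -0.10 and 0.04 in Parp1-/- water 1 to 3 and at 2.55, 2.56 and 2.38 in DSS 1 to 3. It rose by 2.68 ± 0.10 (SE), with a limma adjusted p of 0.0126, and all 3 DSS arrays lay above all water arrays. Steap4, a metalloreductase induced by inflammation, rose by 3.03 ± 0.14, with a limma adjusted p of 0.0132, from -0.64 to -0.29 in water to 2.46 to 2.81 in DSS. Ifit1, an interferon-induced antiviral protein, rose by 1.35 ± 0.08, with a limma adjusted p of 0.0392. It was at -0.52, -1.23 and -1.29 in water and at 0.10, 0.85 and 0.66 in DSS, and in each treatment the muscle-rich arrays had the lower values.

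The genes that fell were small nucleolar RNA genes, which the naming rule passes over and which are given because they were the only ones. Snora34 was at 1.76, 2.57 and 2.71 in Parp1-/- water 1 to 3 and at 0.75, -0.06 and -0.12 in DSS 1 to 3, and it fell by 1.91 on the log2 scale (limma adjusted p 0.0132). Snord35b was at 1.08, 2.67 and 2.80 against 1.42, -0.03 and 0.03. Its groups overlapped, and it fell by 1.28 (limma adjusted p 0.0473) only once the muscle mean was in the model, against 1.71 lower with an adjusted p of 0.5 without it. Without the muscle term Ifit1 had an adjusted p of 0.242 and Snora34 of 0.211. None of the 5 calls was kept when Parp1-/- water 1, 2 or 3, DSS 1 or DSS 3 was left out. In those fits limma called 0 genes and gave 1567 to 2547 genes with an unadjusted p under 0.05. Without Parp1-/- DSS 2, 81 were called, among them all 5. A fit with fewer arrays is also less able to call a gene, and the part of this in the counts was not tested. Over 13 alternatives the adjusted p ranged from 0.00472 to 0.331 for Plat, from 0.00472 to 0.381 for Steap4 and from 0.0242 to 0.583 for Ifit1. It ranged from 0.0103 to 1.0 for Snora34 and from 0.0343 to 1.0 for Snord35b. Quantile normalization gave 25 higher and 2 lower genes, and equal array medians 3 and 1.

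The DSS differences of the lists are given without and with the muscle term. The term is the mean of the genes that chose the sides, so a list that differs between the sides can shift for that reason alone. These shifts are therefore a description. The median DSS minus water difference of the 6 defining genes was -1.22 without the term and -0.06 with it. Fibroblast and matrix genes went from -0.58 to -0.15, basement membrane genes from -0.37 to -0.10, signalling and receptor genes of smooth muscle from -0.38 to -0.10 and endothelium from -0.24 to -0.06. Cell cycle genes were at -0.55 without the term and -0.43 with it. With the term 1 of the 28 was above 0, 20 of them had an unadjusted p under 0.05, and 0 were called by limma. Neutrophil and inflammation genes had a median of 1.53 in both fits, and all 22 were above 0, with 13 at an unadjusted p under 0.05 and 0 called by limma with the term. Over all 21314 genes, 11334 were above 0 with the term and 2382 had an unadjusted limma p under 0.05. The median over all genes was 0.01 in both fits.

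**Figure D5:**
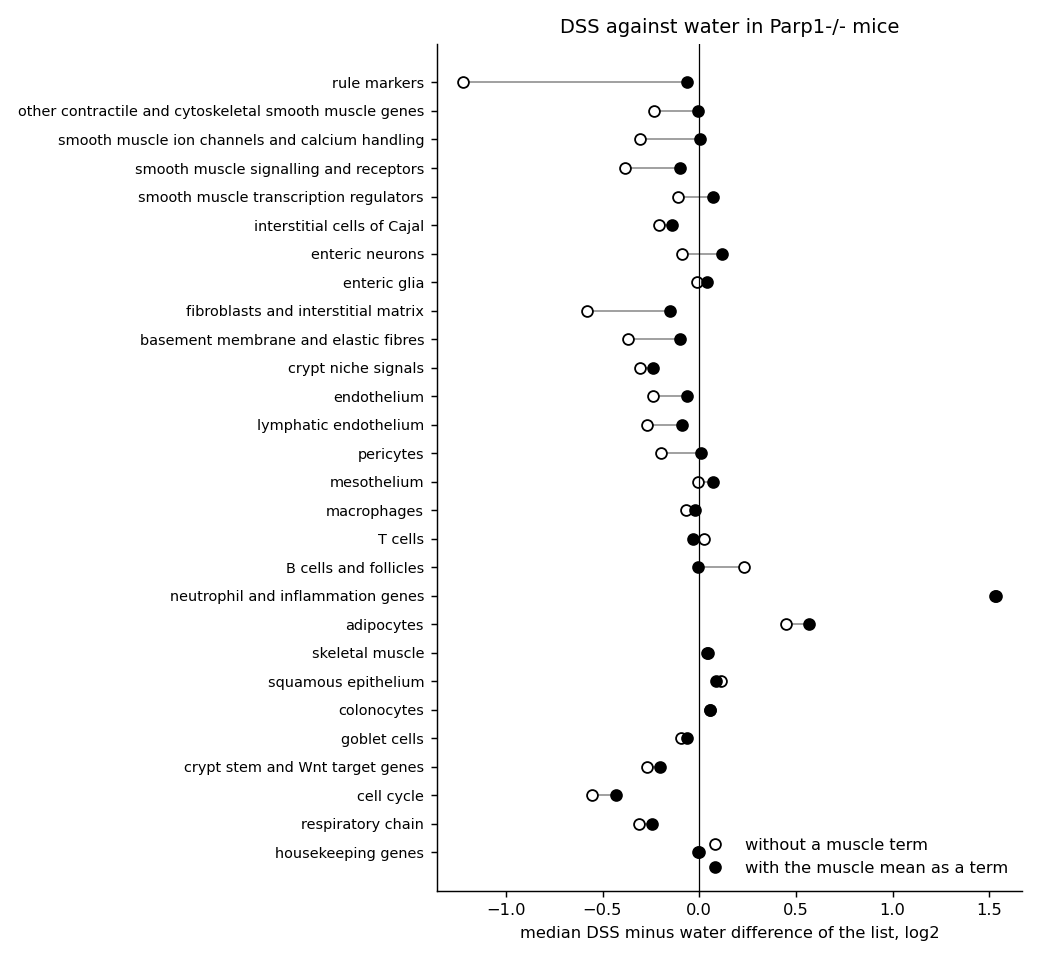
For each list on the y axis, the x axis gives the median DSS minus water difference of its members in Parp1-/- mice in log2 units, without (open) and with (filled) the muscle mean as a term. The defining genes shift from -1.22 to -0.06 and the fibroblast list from -0.58 to -0.15, while the inflammation list stays at 1.53.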

How the data were processed

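Per the labels' protocols, total RNA of whole colon was extracted with Trizol and columns, biotin-labelled and measured on Affymetrix arrays. The authors deposited log-scale values, read here as log2, of 31693 probe sets on 12 arrays; software, background correction and normalization are not given in the sources used. Values ran from -4.83 to 5.47 and every probe set had a median within 5e-07 of 0. Base 2 and the direction are assumed, and signal over background is unknown. Probe sets with 1 gene symbol in the platform annotation (22586; 1756 had several, 7351 none) were averaged to 21314 genes, with symbols updated through RefSeq GRCm38.p6 (22406 matched).

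Muscle means, sides and differences were computed in pandas 2.3.3 (Python 3.11.15), and plots drawn in matplotlib 3.10.9. DSS against water was fitted with limma 3.58.1 (R 4.3.3; lmFit, eBayes, Benjamini-Hochberg over all genes, adjusted p under 0.05) and tested on simulated data. The members, the 38 lists, the tests and the naming rule were chosen with earlier results of these data known. Named were Parp1, the defining genes, Myocd, Srf, actins, myosins, the 12 largest differences without overlap in each direction, up to 4 non-overlapping members of a list (otherwise 2), and called DSS genes, up to 8 in each direction. Predicted genes, small RNAs, smell receptors and immune receptor segments were passed over. Kit and Ano1 were picked for their role, with earlier results of these data known. Other genes named were chosen after their values were seen. Alternatives were other normalizations, probe set rules, thresholds, muscle terms and variance options, and leaving out each array.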

Additional observations from a re-analysis of the deposited data

How the results depend on the processing

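The sides were chosen from the data and 3 against 3 mice limit every value. Genes counted as higher in the muscle-rich arrays numbered 297, and 631 after quantile normalization (288 shared), 1176 at a 1.5-fold limit and 46 at a difference of 2; leaving out each array gave 255 to 442. Genes counted as lower numbered 58, and 219 after quantile normalization (56 shared), 206 at 1.5-fold, 1 at a difference of 2 and 137 with no rule on overlap; leaving out each array gave 48 to 175. The other alternatives gave 278 to 358 higher and 53 to 72 lower genes. Among 380 values of list medians under alternatives, 39 moved by more than the spread between the arrays of a side. Each side held water and DSS arrays, so this spread includes treatment and is a wide measure. The adipocyte median, for example, turned to -0.16 without Parp1-/- water 1 and was not counted as moved. For DSS against water with the muscle term, limma called 5 genes, and 27 after quantile normalization (3 shared), 3 with the side as a factor, 9 with no muscle term, 1 with all 12 arrays, 9 with trend and robust options, 0 at an adjusted p under 0.01 and 0 to 81 without each array. At an unadjusted p under 0.05 these fits had 2317, 2206, 1889, 428 and 2213 genes. The causes of these shifts were not tested. The muscle mean's DSS minus water difference was -1.20 to -0.85 under the other normalizations and probe rule and -2.66 to -0.43 without each array. No paired analysis was possible because the replicate numbers follow the order of deposit and the labels tie no mouse of 1 group to a mouse of another.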

Other observations

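The genes of this paragraph were picked after their values were seen. Hspa1a, an inducible heat shock gene next to Hspa1b and nearly identical to it, was at 1.34 and 2.72 in the muscle-rich Parp1-/- water 2 and 3 and between -0.34 and 0.15 in the other 4 Parp1-/- arrays. Ly6g, a surface marker of neutrophils, had the lowest difference of all genes, -3.14, and was at -3.70 and -4.83 in Parp1-/- water 2 and 3 but -0.21 in water 1, so its sides overlapped through DSS 1, at 1.24. The mucosal metalloproteinase gene Adamdec1, also among the genes higher in the muscle-rich arrays, was at 2.54, 2.41 and 0.97 in the muscle-rich arrays and at 0.29, -0.29 and -1.39 in muscle-poor water 1, DSS 2 and DSS 3, with no overlap. The microRNA genes Mir200b and Mir192, which epithelial cells are known to express, were among the genes higher in the muscle-rich arrays, at 1.37, 1.99 and 1.07 against 0.35, -0.13 and 0.13 for Mir200b, while the colonocyte list had a median of -0.11.

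Lists not described above had small medians between the sides. Macrophage genes had a median difference of 0.32 and plasma cell genes of 0.10, mast cell genes were at -0.15, crypt stem and Wnt target genes at 0.08 and clock genes at 0.11, with no member higher or lower by the rule. Hox genes of groups 1 to 8 and of groups 9 to 13, which are used along the length of the gut, had medians of 0.23 and -0.06, and none of their 21 and 15 members was higher or lower. Cytosolic ribosomal protein genes had a median of 0.17 over 85 members. Immediate early and heat shock genes had a median of -0.06, with Hspa1b higher and Zfp36 lower, and of 8 blood genes 1 was measured, at -0.18. Some of these medians turned or came near 0 without Parp1-/- DSS 3, where the Hox groups were at 0.013 and 0.079, clock genes at -0.060, crypt stem and Wnt target genes at -0.034 and immediate early and heat shock genes at 0.10. The second Hox group was also above 0 without Parp1-/- water 1, at 0.061, and without DSS 1, at 0.0033, and immediate early genes without water 2, at 0.096. The treatment-adjusted difference turned the medians of clock genes, to -0.065, of crypt stem and Wnt target genes, to -0.0097, and of immediate early and heat shock genes, to 0.11.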
